A study of Mus musculus with 27 samples.

Results

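The comparison asks which genes differed in cortex that received R55 from cortex that received the vehicle solution alone. R55 and R33 are pharmacological chaperones of the retromer, used to raise the stability of its VPS35 subunit. The comparison holds 9 of the 27 libraries used, 5 of the R55-injected hemisphere and 4 of the vehicle-injected hemisphere, chosen because their labels name R55 or vehicle and the injected side. Each library is 1 mouse. The R55-treated mice are P, AA, Q, R and AB, and the vehicle-treated mice are J, M, L and AH. All 9 were female 5xFAD mice of 16 weeks. This line carries human transgenes with familial Alzheimer mutations, APP among them, behind the neuronal Thy1 promoter, so both groups carry the transgenes and no wild-type mouse enters the comparison. Each mouse received 500 nL into the lateral parietal associative cortex, as 10 mM R55 or as vehicle with no drug, and both solutions held 3% DMSO and 20% sulfobutylether-β-cyclodextrin. Tissue was taken 24 h later as a small block around the injection site, so the libraries hold all the cell types of that block.

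The retromer is a complex of VPS35, VPS26 and VPS29 on the endosome membrane. With sorting nexins and the actin-nucleating WASH complex it gathers receptors such as sortilin and SORL1 and sends them to the Golgi or the plasma membrane instead of the lysosome. Neurons rely on this sorting for glutamate receptors at synapses and for the amyloid precursor protein, which is cut to amyloid-β in endosomes. R55 acts on the protein complex, and the libraries measure RNA.

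The 9 libraries held 20764299 to 33625272 fragments on genes. Levels are given in FPKM, fragment counts scaled to gene length and library total. Changes are differences of log2(FPKM + 1) with the standard error (SE) of the limma fit, and they understate the change of genes near 1 FPKM. Of 26264 genes in the table, 12976 were tested, those whose average across the 27 libraries reached 1 FPKM. Markers of cortical neurons were high in all 9 libraries. Slc17a7, the vesicular glutamate transporter of cortical excitatory neurons, lay between 434 and 584 FPKM, and Gad1, which makes GABA, between 74.8 and 96.6 FPKM. Markers of neighbouring regions were not even. The 11 striatal markers summed to 359.6 FPKM in vehicle mouse L and to 112 to 143 FPKM in the other 8. The 12 hippocampal markers summed to 225 FPKM in vehicle mouse M, 151 in vehicle mouse J and 137 in R55 mouse P, and to 75.2 to 81.6 FPKM in the other 6. Choroid plexus and ependymal genes summed to 166 FPKM in L and 74.6 FPKM in P, against 6.85 to 24.8 FPKM elsewhere. Mouse AA stood apart on immune genes, as given further on. Results that move with these libraries are therefore given also without vehicle mice L and M.

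No gene passed an adjusted p-value of 0.05, that is 0 of 12976 or 0.0%, and the smallest adjusted p was 1 (limma, Benjamini-Hochberg). At an unadjusted p under 0.05 there were 356 genes (2.74%), against 648.8 that a flat distribution of p-values would give. Of these, 152 (1.17%) were higher and 204 (1.57%) were lower after R55. In 48 genes (0.37%) all 5 R55 libraries lay above all 4 vehicle libraries, and in 75 genes (0.578%) all 5 lay below. Differences were small. The log2 fold change stayed under 0.25 in size for 95.5% of genes, with a median SE of 0.0902. On the log2(FPKM + 1) scale the 95% confidence interval excluded a change of 1 in either direction for 98.2% of genes. It excluded a change of 0.5 for 88.3%. For genes of a few FPKM or less, a doubling of FPKM is smaller than 1 on this scale, so it is not excluded by these shares. In the text below "lower" and "higher" therefore describe levels in these 9 mice, and "p under 0.05" refers to the unadjusted limma p, which no gene kept after adjustment. The gene lists were written with earlier results of these data known. Counts of their members describe the lists and are not independent evidence.

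**Figure D1:**
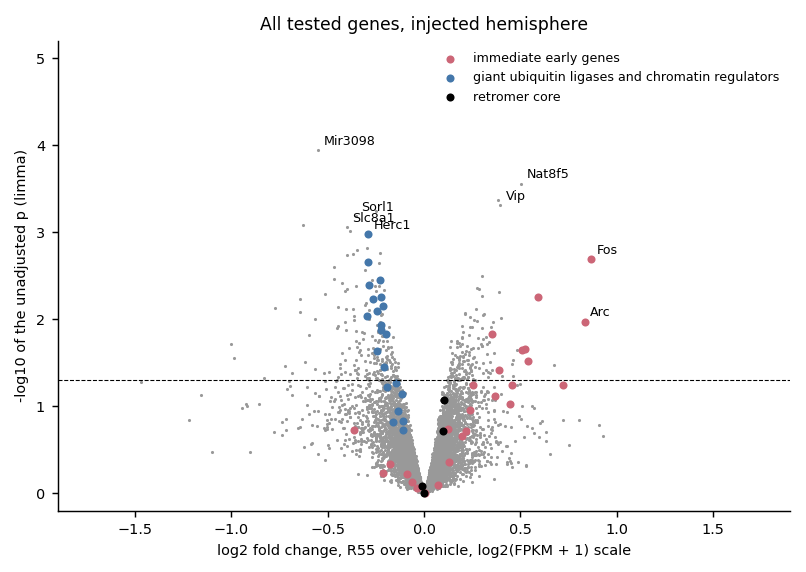
Each grey point is 1 of the 12976 tested genes, with the log2 fold change of R55 over vehicle (n = 5 and 4 mice) on the x axis and -log10 of the unadjusted limma p on the y axis; the dashed line marks the unadjusted 0.05 level. Immediate early genes (red) lie mostly to the right, giant ubiquitin ligase and chromatin genes (blue) to the left, and the 4 retromer core genes (black) below the line; no gene passed the adjusted threshold.

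The retromer itself showed no difference in RNA that the spread between mice would resolve. Vps35, the cargo-binding subunit (chromosome 8, 85986024 to 86026431 in GRCm39), measured 60.03, 58.7, 53.98 and 50.6 FPKM in vehicle mice J, M, L and AH. It measured 65.9, 59.6, 59.8, 59.3 and 54.5 FPKM in R55 mice P, AA, Q, R and AB. The groups overlapped, with a log2 fold change of 0.10 and a 95% confidence interval of -0.06 to 0.26. Vps26a, the widely expressed VPS26 isoform, had a log2 fold change of 0.10 (interval -0.02 to 0.23). Its neuron-enriched paralog Vps26b had -0.01 (interval -0.13 to 0.11), and Vps29 had -0.00 (interval -0.28 to 0.28). None of the 13 retromer partners, which include the membrane-bending nexins Snx1, Snx2, Snx5 and Snx6, the cargo adaptor Snx27 and 5 WASH subunits, had p under 0.05, and their median log2 fold change was 0.04. Rab7, the late-endosome GTPase that recruits the retromer, measured 98.95 ± 3.57 FPKM in 4 vehicle mice and 102 ± 4.37 FPKM in 5 R55 mice (mean ± SD), a log2 fold change of 0.04 with an interval of -0.08 to 0.16.

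Among the 7 Vps10 and mannose 6-phosphate sorting receptors, Sorl1 had the lowest log2 fold change. Sorl1, a sorting receptor that binds the amyloid precursor protein (chromosome 9, 41876012 to 42035656 in GRCm39), measured 38.8, 39.3, 41.6 and 39.7 FPKM in vehicle mice J, M, L and AH. After R55 it measured 29.6, 27.2, 35.5, 30.8 and 32.3 FPKM in P, AA, Q, R and AB. Every R55 library was thus under every vehicle library, and the vehicle mice differed by less than 3 FPKM. The log2 fold change was -0.35 (SE 0.0734, 95% confidence interval -0.52 to -0.19), and it ran from -0.40 to -0.31 as each mouse was left out. The other 6 sorting receptors had p above 0.05. Sort1 (sortilin) had a log2 fold change of -0.15 (SE 0.1002) and Igf2r, the mannose 6-phosphate receptor, -0.18 (SE 0.106).

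All 11 tested members of the LDL receptor family, endocytic receptors for lipoproteins and other ligands, had log2 fold changes below 0, with a median of -0.13 against 0.01 over all tested genes. Of the 11, Lrp1 and Lrp1b were lower at p under 0.05, against 1.57% of all tested genes. Lrp1, a large receptor for apolipoprotein E, measured 30.9, 28.1, 32.6 and 37.3 FPKM in vehicle mice and 19.5, 22.7, 24.7, 25.2 and 28.9 FPKM after R55. Only R55 mouse AB reached into the vehicle range. The log2 fold change of Lrp1 was -0.40 (SE 0.111), and that of its neuronal paralog Lrp1b was -0.37 (SE 0.114). In the APP processing list, 1 of 16 tested genes had p under 0.05, against 2.74% of all tested genes. This was Col25a1, a transmembrane collagen found in amyloid plaques, at 5.59 ± 1.40 FPKM in vehicle mice and 3.85 ± 1.16 FPKM after R55 (SD, n = 4 and 5; log2 fold change -0.45, SE 0.197). The highest Col25a1 values were those of J and M among vehicle mice (6.91 and 6.14 FPKM) and of P among R55 mice (5.34 FPKM). These mice had the most hippocampal marker RNA, whose part in Col25a1 was not tested. Without vehicle mice L and M, 1 LDL receptor family member and 0 APP processing genes were lower at p under 0.05.

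Bridge lipid transfer proteins are long rod-shaped proteins that move lipids between organelles at contact sites. Of 10 tested, 4 were lower at p under 0.05, and in all 4 the groups did not overlap, against 1.57% and 0.578% of all tested genes. Vps13b, linked to the Golgi and endosomes, measured 4.402 to 4.93 FPKM in vehicle mice and 3.32 to 4.21 FPKM after R55, a log2 fold change of -0.26 (SE 0.0696). Vps13d, which acts at mitochondria and peroxisomes, had -0.24 (SE 0.0642). Vps13c, found at late endosomes and lysosomes, had -0.32 (SE 0.111), and Bltp1, listed as 4932438A13Rik, had -0.27 (SE 0.0722). Vps13c measured 5.48 and 4.97 FPKM in J and M, the vehicle mice with the most hippocampal marker RNA, and 3.56 and 3.70 FPKM in L and AH. The part of hippocampal tissue in Vps13c was not tested. The other 6 members lay between -0.07 and 0.06. Vps13a, whose transcript belongs to the same family, measured 5.196 ± 0.407 FPKM in vehicle mice and 4.98 ± 0.638 FPKM after R55. The list without vehicle mice L and M also had 4 lower members, and with the trend on transcript length removed from each library it had 2 and a median of -0.02 in place of -0.06.

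Genes of neuronal calcium handling were mostly on the lower side. Of 23 tested, 21 had log2 fold changes below 0, and the median was -0.11. At p under 0.05, 3 were lower, against 1.57% of all tested genes. Ryr2, the ryanodine receptor that releases calcium from the endoplasmic reticulum (chromosome 13, 11567988 to 12121870 in GRCm39), measured 11.6, 12.7, 11.99 and 9.54 FPKM in vehicle mice and 8.40, 7.76, 9.20, 8.15 and 9.02 FPKM after R55. The highest R55 library stayed just under the lowest vehicle library, AH. The log2 fold change was -0.38 (SE 0.0842), and -0.28 without vehicle mice L and M. Slc8a1, a sodium-calcium exchanger of the plasma membrane, measured 17.1, 15.5, 14.4 and 14.1 FPKM in vehicle mice and 11.35, 11.98, 12.55, 9.41 and 11.4 FPKM after R55, with no overlap. Its log2 fold change was -0.40 (SE 0.0869). Cacna1e, the R-type calcium channel, had -0.45 (SE 0.147), with 3 of the 5 R55 libraries under all vehicle libraries. Its highest vehicle values were those of J and M (14.56 and 15.52 FPKM), the vehicle mice with the most hippocampal marker RNA, whose part was not tested. The L-type channels Cacna1c and Cacna1d had -0.11 each, with SE of 0.128 and 0.0768.

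Among 16 ionotropic glutamate receptor genes the median was -0.08. Grin2b and Grin2a were lower at p under 0.05, against 1.57% of all tested genes. Grin2b and Grin2a encode the NMDA receptor subunits that set how long the channel stays open. Grin2b measured 23.6, 24.4, 19.1 and 19.5 FPKM in vehicle mice and 16.2, 14.6, 18.5, 12.7 and 19.0 FPKM after R55. Its groups did not overlap, although R55 mouse AB lay close to vehicle mouse L, and the log2 fold change was -0.40 (SE 0.122). Grin2a had -0.34 (SE 0.127), and -0.21 without vehicle mice L and M. Gria1, an AMPA receptor subunit, measured 97.8, 137, 60.1 and 49.9 FPKM in vehicle mice and 74.4, 54.0, 62.2, 46.4 and 57.0 FPKM after R55. The 2 highest vehicle values belong to M and J and the highest R55 value to P, the 3 mice with the most hippocampal marker RNA. The log2 fold change of Gria1 was -0.45 with an interval of -1.03 to 0.13. In Grin2b the 2 highest vehicle values were also those of M and J, though P was not the highest R55 mouse. The part of hippocampal tissue in Gria1 and Grin2b was not tested. Without L and M, 1 of the 16 ionotropic receptor genes and 2 of the 23 calcium genes were lower at p under 0.05. None of the 7 metabotropic receptors or 23 postsynaptic scaffold genes had p under 0.05 with all 9 mice. Without R55 mouse AA, 4 of the 23 scaffold genes were higher at p under 0.05, and without L and M 0 were. Of 24 genes of the presynaptic release machinery only Pclo, which encodes the active zone scaffold piccolo, had p under 0.05. Its log2 fold change was -0.35 (SE 0.0818), with no overlap. With the trend on transcript length removed, 0 of the 24 presynaptic genes and 0 of the 16 ionotropic receptor genes had p under 0.05.

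**Figure D2:**
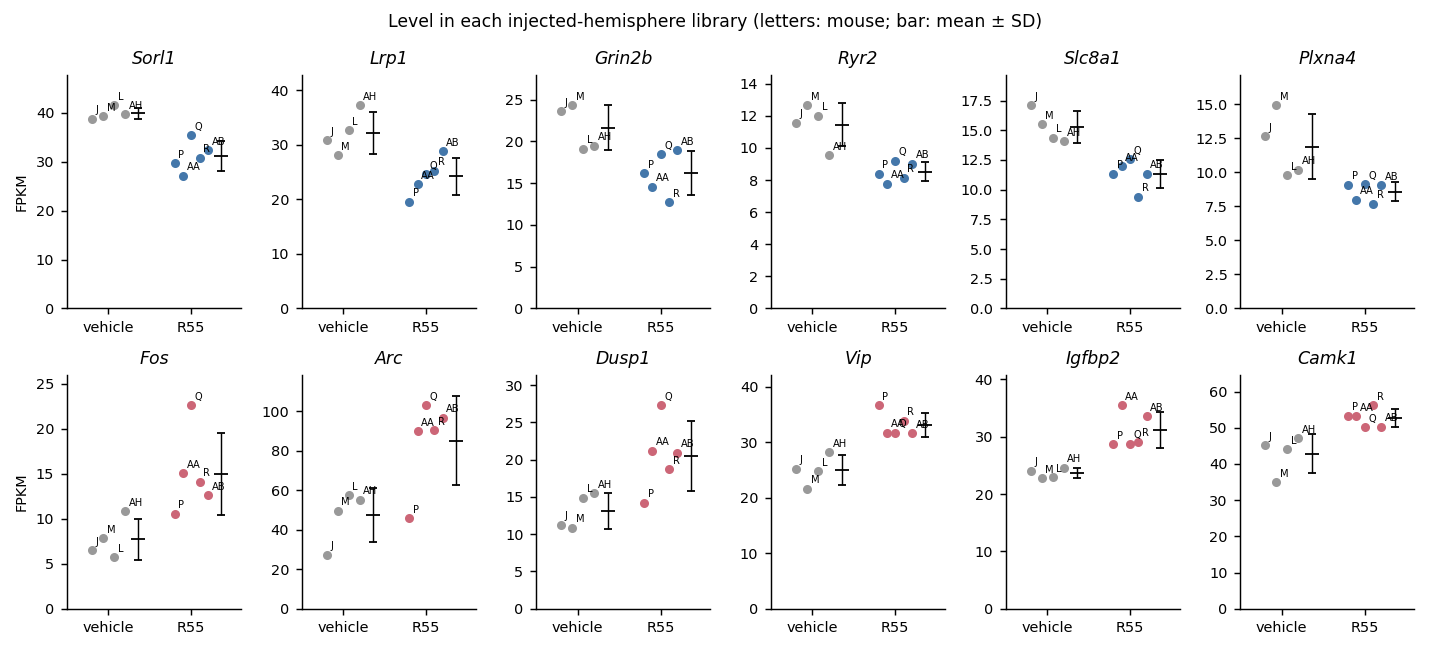
FPKM (y axis, from 0) of 12 genes in the 4 vehicle libraries (grey) and the 5 R55 libraries (blue where lower, red where higher), each point labelled with its mouse; bars are mean ± SD. In Sorl1, Grin2b, Ryr2, Slc8a1, Plxna4, Vip, Igfbp2 and Camk1 the groups do not overlap, while in Lrp1, Fos, Arc and Dusp1 1 R55 mouse reaches into the vehicle range.

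Genes of axon guidance and of giant cadherins showed the same side. Of 22 guidance genes, 20 had log2 fold changes below 0 (median -0.16). At p under 0.05, 4 were lower, against 1.57% of all tested genes. Sema5a, a transmembrane semaphorin, measured 9.98, 8.41, 5.45 and 4.58 FPKM in vehicle mice and 6.08, 3.47, 2.69, 2.88 and 3.37 FPKM after R55. R55 mouse P lay above 2 vehicle mice, and the log2 fold change was -0.77 (SE 0.233). The highest values, in J, M and P, were those of the 3 mice with the most hippocampal marker RNA, whose part in the difference was not tested. Plxna4, a semaphorin receptor, had -0.41 (SE 0.115) with no overlap, and Sema5b had -0.34 (SE 0.121). In Plxna4, too, the highest vehicle values were those of J and M (12.65 and 14.94 FPKM), while P had 9.09 FPKM. Of the giant cadherins, which span the gap between neighbouring cells, 5 of 9 were expressed highly enough to test, and 4 of the 5 were lower at p under 0.05, 3 of them without overlap, against 1.57% and 0.578% of all tested genes. With the trend on transcript length removed, 2 were. Fat3 measured 3.06 to 4.07 FPKM in vehicle mice and 2.17 to 3.03 FPKM after R55 (log2 fold change -0.40, SE 0.0958). Celsr2 had -0.23, Fat1 -0.28 and Dchs1 -0.20. Without vehicle mice L and M, 3 guidance genes and 2 giant cadherins were lower at p under 0.05.

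The giant ubiquitin ligases mark proteins for degradation, and the chromatin regulators modify or remodel nucleosomes. The list of 21 also holds Atm, Prkdc, Smg1 and Mtor, large kinases of the PI3K-related family, of which Smg1 was lower at p under 0.05. All 21 had log2 fold changes below 0, with a median of -0.22. At p under 0.05, 14 were lower and 0 higher, and in 9 the groups did not overlap, against 1.57% lower and 0.578% without overlap among all tested genes. These transcripts are long, and in the longest of 5 length groups 3.70% of genes were lower. The list was written with earlier results known, so these counts are not independent evidence. Herc1, a ubiquitin ligase with a transcript of 15229 bases, measured 13.4, 12.35, 14.02 and 13.9 FPKM in vehicle mice and 10.6, 10.1, 11.8, 10.2 and 11.3 FPKM after R55. The highest R55 library, Q, stayed under the lowest vehicle library, M, and the log2 fold change was -0.29 (SE 0.0641). Mycbp2, a ligase of axon growth, had -0.29 (SE 0.0711), Birc6, which blocks caspases, had -0.23 (SE 0.0607) and Kmt2c, a histone H3 lysine 4 methyltransferase, had -0.29 (SE 0.0776). Without vehicle mice L and M the list again had 14 lower members, and its median was -0.26.

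The lists with the most lower members are made of long transcripts, so length was examined over all genes. Of the 204 genes lower at p under 0.05, 96 lay in the longest of 5 equal length groups, whose median transcript length is 6838 bases. That is 3.70% of the group, against 0.886 to 1.31% of the other 4. The share of higher genes was 1.65% in the shortest group and 0.733% in the longest. The Spearman correlation of the log2 fold change with length across genes was -0.13, which is a description since genes are not replicates. Mice differed in this among themselves. The correlation of a library's deviation from the 9-library mean with length was -0.28 in AA and -0.27 in R, but 0.32 in Q, and between -0.02 and 0.09 in the other 6. Without mouse AA the correlation of the fold change with length was -0.01, and among mice whose label has 1 letter (J, M and L against P, Q and R) it was also -0.01. In these 1-letter mice 14 of the 21 giant ligase and chromatin genes were again lower at p under 0.05, and without AA 13 were. With a smooth trend on length removed from each library, 5 of the 21 remained lower at p under 0.05 and the median was -0.10. In that fit the log2 fold change was -0.27 for Sorl1, -0.24 for Slc8a1, -0.24 for Ryr2 and -0.20 for Grin2b, and of these 4 genes Grin2b no longer had p under 0.05.

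**Figure D3:**
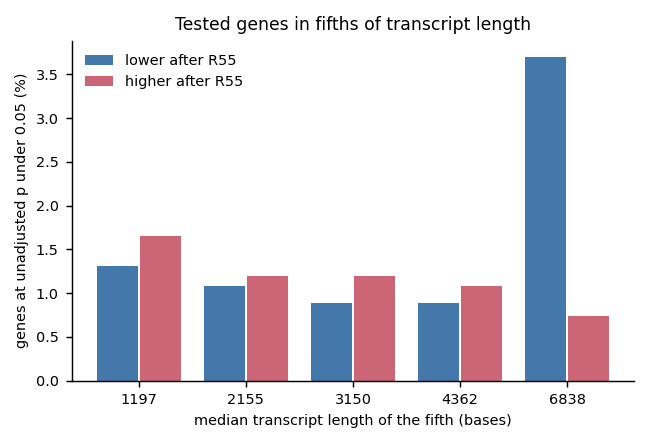
Share of tested genes at an unadjusted limma p under 0.05 (y axis, percent, from 0) in each of 5 equal groups of transcript length, labelled by the median length in bases; blue bars are genes lower and red bars genes higher after R55. The longest group holds 3.70% lower genes against 0.886 to 1.31% in the other 4.

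Immediate early genes, which neurons switch on within minutes of activity through calcium and cAMP signalling, were the group with the most higher members. Of 26 tested, 20 had log2 fold changes above 0, 8 were higher at p under 0.05 against 1.17% of all genes, and the median was 0.25. The 8, of which Junb, Egr2, Btg2 and Ier2 were named after their values were seen, were Fos, Fosb, Junb and Egr2, which encode transcription factors, Arc, a synaptic protein that controls AMPA receptor uptake, Dusp1, a phosphatase of MAP kinases, Btg2 and Ier2. Fos (chromosome 12, 85520658 to 85524047 in GRCm39) measured 6.49, 7.86, 5.70 and 10.8 FPKM in vehicle mice J, M, L and AH. After R55 it measured 10.5, 15.1, 22.6, 14.1 and 12.6 FPKM in P, AA, Q, R and AB. R55 mouse P was slightly below vehicle mouse AH and the other 4 were above all vehicle mice. The log2 fold change was 0.87 (SE 0.211, interval 0.40 to 1.33). Arc measured 27.3, 49.6, 57.5 and 55.2 FPKM in vehicle mice and 45.8, 89.8, 103, 90.4 and 96.7 FPKM after R55, where again only P overlapped (log2 fold change 0.83, SE 0.268). In Dusp1, too, P was the R55 mouse inside the vehicle range, with a log2 fold change of 0.59 (SE 0.169), and Fosb had 0.35 (SE 0.121). Other members, picked after their values were seen, did not follow. Nr4a3 had a log2 fold change of -0.36, Bdnf, a neurotrophin, -0.18, and Jun -0.04, each with p above 0.05. Without vehicle mice L and M, 5 members were higher and 1 lower at p under 0.05, and the median was 0.30. Without mouse AA, 12 were higher.

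Promoters of this list were read from RefSeq sequence (GRCm38.p6), which covers 250 bases before to 50 bases after each start. The cAMP response element TGACGTCA and its core TGACG, which it contains, were searched on both strands. The core is present in 20.8% of 32851 promoters and the whole element in 1.79%. Of the 21 immediate early genes with a promoter in the table, 15 held the core and 2 the whole element. Of the 8 higher genes, 6 had a promoter there and all 6 held the core. A gene was counted when any of its promoters held the match, whereas the shares above count single promoters. The counts of genes therefore cannot be set directly against those shares. A match describes letters and not a bound site. The promoters of Fos and Dusp1 are shown because these genes had the smallest p-values of the list, and that of Vip because it was higher with no overlap between groups. Capitals mark the core or the whole element, on either strand.
Fos, chr12:85473640-85473939, plus strand: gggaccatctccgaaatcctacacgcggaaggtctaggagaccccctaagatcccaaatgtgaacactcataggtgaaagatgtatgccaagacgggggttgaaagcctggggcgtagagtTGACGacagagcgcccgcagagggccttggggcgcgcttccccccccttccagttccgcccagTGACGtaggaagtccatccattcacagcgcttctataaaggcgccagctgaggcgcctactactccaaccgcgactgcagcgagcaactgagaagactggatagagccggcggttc
Dusp1, chr17:26508423-26508722, minus strand: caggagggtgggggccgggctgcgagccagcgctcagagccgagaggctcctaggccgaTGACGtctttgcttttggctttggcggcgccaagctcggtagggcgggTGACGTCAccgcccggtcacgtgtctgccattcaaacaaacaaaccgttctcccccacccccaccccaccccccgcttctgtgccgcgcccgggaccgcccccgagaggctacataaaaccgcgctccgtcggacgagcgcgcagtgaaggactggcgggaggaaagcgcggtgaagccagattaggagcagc
Vip, chr10:5638968-5639267, plus strand: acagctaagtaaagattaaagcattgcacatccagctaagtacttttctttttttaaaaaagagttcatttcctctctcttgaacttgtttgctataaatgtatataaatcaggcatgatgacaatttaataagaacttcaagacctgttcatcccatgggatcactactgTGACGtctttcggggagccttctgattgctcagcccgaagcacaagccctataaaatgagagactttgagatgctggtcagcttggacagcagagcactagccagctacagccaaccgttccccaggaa
Counted from 1 at the 5′ end of the stretch, the core starts at 122 and 185 in Fos and at 172 in Vip. In Dusp1 it starts at 60 and, as the whole element, at 108.

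Vip, the neuropeptide of a class of cortical interneurons (chromosome 10, 5589186 to 5599956 in GRCm39), measured 25.2, 21.6, 24.8 and 28.2 FPKM in vehicle mice and 36.6, 31.7, 31.7, 33.9 and 31.6 FPKM after R55. The groups were more than 3 FPKM apart, with a log2 fold change of 0.40 (SE 0.0791). It was the only 1 of 12 interneuron genes with p under 0.05, and Pvalb and Lamp5, markers of other interneuron classes, had 0.13 (SE 0.197) and 0.15 (SE 0.164). Igfbp2, a secreted binder of insulin-like growth factors made by astrocytes and vessels, measured 22.8 to 24.6 FPKM in vehicle mice and 28.7 to 35.5 FPKM after R55 (log2 fold change 0.38, SE 0.0745). Camk1, a calcium/calmodulin-dependent kinase, measured 45.2, 35.0, 44.0 and 47.1 FPKM in vehicle mice and 53.3, 53.2, 50.1, 56.2 and 50.2 FPKM after R55. Its log2 fold change was 0.30 (SE 0.0849), and 0.19 without vehicle mice L and M. Nat8f5, of an acetyltransferase gene cluster, had the highest log2 fold change of the genes without overlap, 0.50 (SE 0.0936), at 0.879 to 1.18 FPKM in vehicle mice and 1.59 to 2.21 FPKM after R55. It rests on 18 to 62 fragments a library. The other genes among the 10 highest without overlap were Itgb3bp, Fam205c, 4930479D17Rik, Colca2, Cgrrf1 and Prim2, with log2 fold changes of 0.27 to 0.33.

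At the other end, the 3 lowest genes without overlap were short or scarce. Mir3098, a microRNA locus of 87 bases, had the smallest p of all genes. It measured 8.71, 9.96, 7.31 and 9.11 FPKM in vehicle mice and 5.26, 5.81, 6.45, 5.70 and 5.13 FPKM after R55, from 11 to 24 fragments a library (log2 fold change -0.55, SE 0.0908). The locus (chromosome 6, 125172755 to 125172841, plus strand, GRCm39) lies inside an untranslated exon of Mrpl51 on the same strand, so its fragments cannot be told from those of Mrpl51. Mrpl51, a subunit of the mitochondrial ribosome, itself had a log2 fold change of 0.01 (SE 0.0805). The libraries were made from mRNA, so they do not measure the mature microRNA. Its arms are shown with the seed, bases 2 to 8, in capitals, from RefSeq (GRCm38.p6). Neither seed is shared by another of the 1738 mature mouse sequences in that table.
mmu-miR-3098-5p: uCCUAACAgcaggaguaggagc
mmu-miR-3098-3p: uUCUGCUGccugccuuuagga
Snora61, a small nucleolar RNA within an exon of Snhg12, had -0.64 (SE 0.186) from 3 to 10 fragments, and Snhg12 had -0.10 (SE 0.0756). The lncRNA Gm33727 had -0.63 (SE 0.134) from 5 to 36 fragments.

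The other genes among the 10 lowest were expressed by neurons or glia. Htr1a, an inhibitory serotonin receptor, measured 6.40, 7.05, 5.12 and 4.30 FPKM in vehicle mice and 3.54, 3.54, 4.30, 3.81 and 3.84 FPKM after R55. Its highest R55 library, Q, lay just under the lowest vehicle library, AH (log2 fold change -0.47, SE 0.118). The highest vehicle values, 6.40 and 7.05 FPKM, were those of J and M, the vehicle mice with the most hippocampal marker RNA. R55 mouse P, which also carried such RNA, had 3.54 FPKM. The part of hippocampal tissue in Htr1a was not tested. Prima1, which anchors acetylcholinesterase in the membrane, had -0.43 (SE 0.115). Lingo3, a leucine-rich repeat membrane protein, measured 10.2, 17.4, 14.1 and 10.7 FPKM in vehicle mice and 10.1, 8.65, 9.23, 8.74 and 8.93 FPKM after R55. The high vehicle values were those of M and L, and its log2 fold change of -0.45 (SE 0.134) was -0.18 without these mice. Plxna4, Grin2b, Slc8a1 and Fat3 complete the 10.

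Of 19 clock genes, whose daily rhythm depends on the hour of sampling, 4 were higher at p under 0.05 and 0 lower, with a median of 0.09. Over all tested genes 1.17% were higher and 1.57% lower. Tef, a transcription factor with a daily rhythm, measured 71.4, 74.3, 81.9 and 96.2 FPKM in vehicle mice and 92.3, 99.0, 99.6, 94.4 and 114 FPKM after R55 (log2 fold change 0.30, SE 0.0950). Per3, Cry1 and Nr1d2, repressors of the clock, had 0.30, 0.28 and 0.28. In Tef and Nr1d2 the highest vehicle mouse was AH, and without AH the median of the list was 0.31. Without L and M only 1 of the 19 was higher at p under 0.05. The hour of sampling is not in the labels. Of 17 genes of the unfolded protein response and heat shock, 3 were higher at p under 0.05, against 1.17% of all tested genes. They were the heat shock cochaperone Dnajb1 (0.21, SE 0.0659), the endoplasmic reticulum chaperone Hspa5 (0.25, SE 0.1001) and the inducible Hspa1b (0.26, SE 0.118). In none did the groups separate fully. Without L and M, 0 of the 17 had p under 0.05. Of 16 glucocorticoid-responsive genes, Tsc22d3 was higher (0.25, SE 0.0988) and Sult1a1 lower (-0.37, SE 0.116).

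Immune and glial lists gave no member at p under 0.05 with all 9 mice, and the spread between R55 mice was wide. The 28 interferon and antigen presentation genes summed to 639.7 FPKM in R55 mouse AA and to 94.3, 126, 187 and 222 FPKM in R55 mice P, Q, R and AB. Vehicle mice ran from 147 to 205 FPKM. Of the 28 genes, 26 had log2 fold changes above 0 with a median of 0.30, and without AA the median was -0.09. Ifit3, an interferon-induced antiviral gene, measured 38.6 FPKM in AA and 3.69 to 11.7 FPKM in the other 8. Complement genes summed to 1022 FPKM in AA, 281 in P and 298 in Q, against 398 to 647 FPKM in vehicle mice. Homeostatic microglia genes summed to 792 FPKM in AA, 285 in P and 275 in Q. Their median log2 fold change was 0.09, and that of 23 disease-associated microglia genes was -0.03. Spp1 (osteopontin), which microglia express near plaques, measured 61.8 FPKM in AA, 5.71 to 27.6 FPKM in the other R55 mice and 3.45 to 11.7 FPKM in vehicle mice. Of 12 myelin genes, all had log2 fold changes below 0, with a median of -0.20 and no p under 0.05. The summed level was 1583 to 2069 FPKM in vehicle mice and 1174 to 2172 FPKM after R55. Without R55 mouse AA, 7 of the 12 myelin genes were lower at p under 0.05, and without vehicle mice L and M 0 were. Their median was 0.47 for R55 over vehicle in the uninjected hemisphere and 0.20 for injected R33 over vehicle. The 12 endothelial genes summed to 97.3 FPKM in AA and to 120 to 207 FPKM in the others. None of 20 cytokine genes, 19 genes of reactive astrocytes and injury, 13 homeostatic astrocyte genes, 8 oligodendrocyte precursor genes or 16 mural and matrix genes had p under 0.05, nor did the 4 tested leukocyte markers, the 1 tested blood marker or the 7 tested cell cycle genes. The cell cycle genes all had log2 fold changes above 0, with a median of 0.25, and 0.09 without AA. In bulk tissue, fewer cells of a type and less RNA per cell cannot be told apart.

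**Figure D4:**
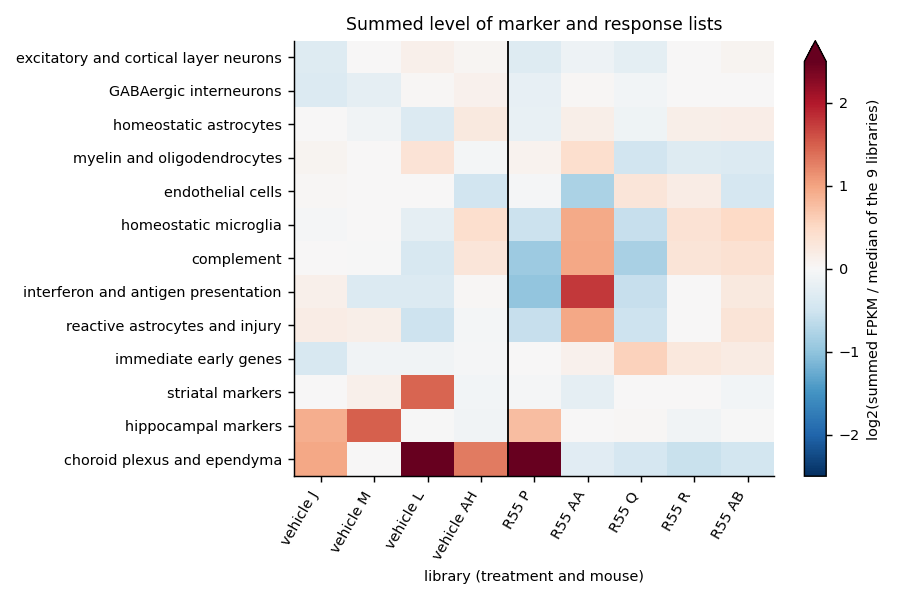
Summed FPKM of each list in each library, divided by the median of the 9 libraries and shown on a log2 colour scale (red above, blue below; values beyond 2.5 are drawn at 2.5), with vehicle libraries left and R55 libraries right of the line. Striatal markers stand out in L, hippocampal markers in M, J and P, choroid plexus genes in L and P, and interferon genes in AA.

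Markers of other brain regions were on the lower side after R55. All 11 striatal, 9 hippocampal and 7 choroid plexus or ependymal genes tested had log2 fold changes below 0, with medians of -0.47, -0.57 and -0.33. Without mice L and M the medians were -0.00, -0.52 and -0.15, and vehicle mouse J still carried hippocampal markers in that fit. Gng7, a G protein subunit of striatal neurons that cortex also expresses, had p under 0.05, with a log2 fold change of -0.47 (SE 0.123) and -0.29 without these mice. In the cortical layer list, upper-layer genes Cux2 and Rasgrf2 were higher (0.41, SE 0.178 and 0.35, SE 0.114), and Bcl11b, expressed in deep layers, striatum and hippocampus, was lower (-0.60, SE 0.205). Bcl11b was -0.32 without L and M, while Cux2 was 0.46 and Rasgrf2 0.35. Of the choroid plexus and ependymal genes Ccdc153, of motile cilia, was lower at p under 0.05, and 0 of the 7 were without L and M. How much the position of the block contributed to these values was not tested.

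Of 42 tested genes that the study's text names, 14 were lower and 0 higher at p under 0.05, against 1.57% and 1.17% of all tested genes. Without L and M 9 of the 42 were lower, against 105 of all 12976 tested genes in that fit. With the trend on transcript length removed, 10 of the 42 were lower. That list was drawn from results on these samples and is not independent evidence of its direction. Lists of basic cell functions had medians near 0. Of 26 lysosomal and 23 autophagy genes none had p under 0.05, with medians of 0.02 and 0.03. The autophagy receptor Sqstm1 had a log2 fold change of 0.03 (SE 0.0719) and the kinase Ulk1 0.11 (SE 0.0662). Ndufa9, a subunit of complex I, had p under 0.05 (log2 fold change 0.16). Of 37 proteasome genes, 36 had log2 fold changes above 0, with a median of 0.08, and Psmd12 had p under 0.05 (0.14, SE 0.0587). Medians of 82 cytosolic ribosomal protein genes and 86 nuclear genes of oxidative phosphorylation were 0.02 and 0.04. Among 13 genes of hypoxia and glycolysis Pdk1, which holds back pyruvate oxidation, was higher without overlap (0.17, SE 0.0624). The groups barely separated, at 14.17 FPKM in R55 mouse P and 14.16 FPKM in vehicle mouse J. Without L and M, 0 of the 13 were higher at p under 0.05.

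**Figure D5:**
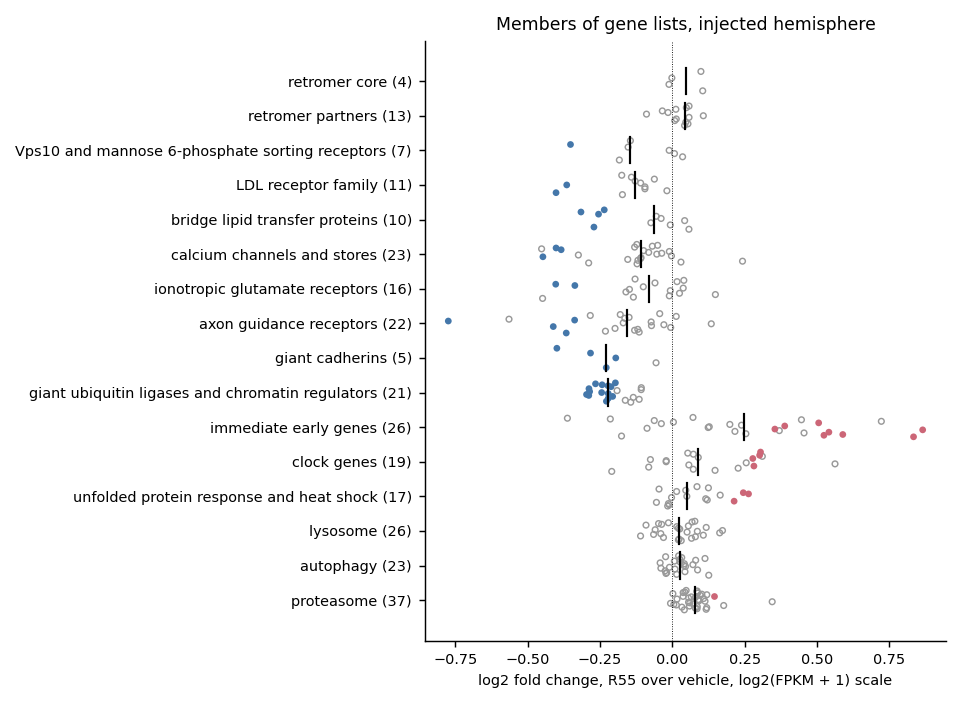
Log2 fold change of R55 over vehicle (x axis) for every tested member of 16 gene lists, with the number tested in brackets; filled points have an unadjusted limma p under 0.05 (blue lower, red higher), open points do not, and black bars are list medians. The giant ubiquitin ligase and chromatin list lies wholly below 0 with a median of -0.22, immediate early genes have a median of 0.25, and retromer, lysosome and autophagy lists lie around 0.

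R33 was given at the same dose and time to 5 other mice, and their injected hemispheres were compared with R55 as 1 pair of compounds over all genes. No gene passed an adjusted p of 0.05 (0.0%, smallest adjusted p = 0.9996), and 508 (3.91%) had an unadjusted p under 0.05, 270 higher and 238 lower with R55. Of the immediate early genes, 14 of 26 were higher with R55 than with R33 at p under 0.05, against 270 of all 12976 tested genes. Fos measured 7.36 ± 3.01 FPKM after R33 (SD, n = 5), close to the vehicle mean of 7.71 ± 2.24 FPKM. The difference R55 minus R33 was 0.96 on the log2 scale, with an interval of 0.46 to 1.46. For Dusp1 it was 0.81 (interval 0.33 to 1.29), for Arc 0.94 (0.21 to 1.67) and for Vip 0.53 (0.22 to 0.84). For Sorl1, Slc8a1 and Herc1 the interval of the difference between compounds included 0. Sorl1 measured 31.1 ± 9.14 FPKM after R33 and 31.1 ± 3.09 FPKM after R55, a difference of 0.06 (interval -0.34 to 0.46). Slc8a1 had -0.07 (interval -0.50 to 0.36) and Herc1 -0.05 (interval -0.23 to 0.13). Nat8f5 measured 1.84 ± 0.216 FPKM after R33 and 1.903 ± 0.286 FPKM after R55, a difference of 0.03 (interval -0.16 to 0.21). Igfbp2 measured 39.4 ± 17.4 FPKM after R33. Both compounds share the vehicle mice as controls.

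The uninjected hemispheres of the same 9 mice were compared next, as the within-mouse difference between hemispheres. The effect of R55 differed between hemispheres for no gene at an adjusted p of 0.05 (0.0%, smallest adjusted p = 0.763), and 789 genes (6.08%) had an unadjusted p under 0.05. Within the uninjected hemisphere alone, 1175 of 12976 genes had an unadjusted p under 0.05 (limma), 658 higher and 517 lower. In the injected hemisphere 356 did, 152 higher and 204 lower, so the list counts below stand against different backgrounds. No gene passed adjustment in the uninjected hemisphere (limma, smallest adjusted p = 0.248). All 21 giant ligase and chromatin genes were lower there at p under 0.05, with a median of -0.41, against 14 and -0.22 in the injected hemisphere. Of the immediate early genes 5 were higher there, with a median of 0.15, against 8 and 0.25. Grin2b had a log2 fold change of -0.84 in the uninjected and -0.40 in the injected hemisphere, a difference of 0.44 (SE 0.233). For Pclo the values were -0.72 and -0.35, a difference of 0.37 (SE 0.125). Arc had 0.69 there and 0.83 in the injected hemisphere (difference 0.14, SE 0.146), and Fos 0.43 and 0.87 (difference 0.43, SE 0.259). The small RNA loci went the other way. Mir3098 had 0.27 in the uninjected and -0.55 in the injected hemisphere (difference -0.82, SE 0.284), and for Snora61 the values were 0.29 and -0.64 (difference -0.94, SE 0.255).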

How the data were processed

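Bulk RNA-seq of cortical tissue was analysed from 27 libraries, 9 of them in the main comparison. The authors prepared stranded mRNA libraries, sequenced them paired-end, aligned reads with HISAT2 to GRCm39 and deposited FPKM values, fragments on genes scaled by gene length and library total. The table also holds 5 libraries that are not used here. Whole fragments were recovered for 99.957% of values within 0.01 and served only for voom and for library totals, whose counting precision does not include variation between mice.

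Differences were tested on log2(FPKM + 1) with limma 3.58.1 (R 4.3.3, intensity trend, treatment as the term, Benjamini-Hochberg over all tested genes; all p-values two-sided), after dropping genes under a mean of 1 FPKM. Every p-value in the text, adjusted or not, comes from this limma model fitted across all genes. Hemispheres were compared as within-mouse differences and R55 with R33 in the same way as with vehicle. The limma code was tested on simulated data. Length trends were removed by lowess (span 0.3). Alternatives were another pseudocount, filter, scaling, model, set of libraries and mouse-label term, and leaving out each mouse.

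Named genes were the 10 highest and 10 lowest without overlap, the genes the study names, up to 4 members of each list with the smallest p, and the retromer core. Markers Slc17a7 and Gad1 and the host genes Mrpl51 and Snhg12 were added as checks. The comparison, the members and the lists were chosen with earlier results of these data known. Nothing in the labels states that mice came from separate cohorts or litters, and replicate numbers were given in accession order. Some items are not reported here.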

Additional observations from a re-analysis of the deposited data

Results flagged for a closer look

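The highest or lowest mouse of a group stood apart from the others by Dixon's criterion in 20 of 268 groups of values (89 genes and 45 lists, each in vehicle and in R55 mice), and chance flags about 1 in 20. Among R55 mice, AA stood apart in the summed level of interferon and antigen presentation genes (639.7 FPKM), in Ifit3 (38.61 FPKM) and Itgb3bp (4.034 FPKM) as the highest, and in Slc17a7 (497.2 FPKM) and Per3 (5.337 FPKM) as the lowest. P was highest for hippocampal markers (136.6 FPKM), choroid plexus and ependyma genes (74.6 FPKM) and Sema5a (6.083 FPKM), and lowest for Arc (45.79 FPKM). R was lowest for Vps26b (20.22 FPKM) and Colca2 (0.898 FPKM), Q was highest for Btg2 (12.5 FPKM), and AB was highest for Fat3 (3.026 FPKM).

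Among vehicle mice, L was highest for striatal markers (359.6 FPKM) and choroid plexus and ependyma genes (165.6 FPKM) and lowest for Spp1 (3.453 FPKM). AH was highest for APP processing genes (3613 FPKM) and lowest for endothelial genes (120.0 FPKM) and Cacna1d (3.53 FPKM). J was highest for Kmt2c (5.438 FPKM).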

How the results depend on the processing

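The count of 0 genes at an adjusted p of 0.05 (limma) held in all 21 alternatives, with a smallest adjusted p of 0.427 over them. For the difference between hemispheres it held in 15 fits (smallest 0.372) and for R55 minus R33 in 16 fits (smallest 0.111). The 356 genes at an unadjusted p under 0.05, 152 higher and 204 lower, were 715 (283 higher, 432 lower) without the filter, 141 (68 and 73) with all 14 injected libraries, 107 (44 and 63) with all 27 libraries, 629 (238 and 391) in 1-letter mice and 177 (72 and 105) without vehicle mice L and M, the last chosen after seeing the data. Leaving out 1 mouse gave 228 (without M) to 787 (without AH) genes, with 75 to 295 higher and 141 to 492 lower. The cause was not tested. No named gene of 206 passed the adjusted threshold in any fit, so that threshold says nothing of their stability. Over the 21 alternatives the median of 22 of the 45 lists changed sign at least once (76 of 945 medians), among them interferon, homeostatic and disease-associated microglia, complement and metabotropic receptor genes. That of hypoxia and glycolysis genes went from 0.07, above its jackknife error over mice, to -0.005314 without L and M; the cause was not tested. No paired analysis was possible because each mouse received 1 treatment and gave 1 injected library.

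With 4 and 5 mice the median 95% confidence interval, not adjusted for the number of genes, reached 0.20 on the log2 scale to either side. Smaller differences were therefore not resolved for a typical gene even before adjustment. The interval is not a limit of detection after adjustment. Vip, with a log2 fold change of 0.40 (SE 0.0791), and Sorl1, with -0.35 (SE 0.0734), did not pass the adjusted threshold.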
